A study of Mus musculus with 30 samples.

Results

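The genes described here are 10 genes of the canonical Wnt pathway, taken by symbol from the 22477 genes of an RNA-seq table. They are Axin2, Sp5, Nkd1 and Cdx1, which are targets or feedback genes of the pathway, the 4 TCF/LEF factors Tcf7l1, Tcf7, Lef1 and Tcf7l2, the ligand Wnt3 and the secreted antagonist Sfrp1. The cells were mouse secondary iPSCs, pluripotent cells in which dox switches on transgenes of Oct4, Sox2, Klf4 and cMyc (together OSKM), with GFP in place of 1 Nanog allele and constitutive nuclear RFP. All conditions came from this cell system, which was kept in serum/LIF on feeders of mouse embryonic fibroblasts, or MEFs, and the methods describe no second line. Cells were changed to N2B27 medium with LIF and 2i, the GSK3 inhibitor CHIR99021 at 3 µM and the MEK inhibitor PD0325901 at 1 µM, and differentiated by moving to N2B27 without 2i/LIF. The time course held 7 conditions, at 0, 24, 36, 48, 60, 72 and 96 h of withdrawal. The other 8 conditions were cells withdrawn for 0, 24, 48 or 96 h and re-seeded for 48 h in serum/LIF, either –dox or with dox at 2 µg/ml (+dox), which induces the OSKM transgenes. Of these conditions, only that at 0 h of the time course was collected in the GSK3 inhibitor. Withdrawal removed the GSK3 inhibitor, the MEK inhibitor and LIF together. Cells re-seeded from 0 h left both inhibitors and kept LIF, but gained serum, and those re-seeded later regained LIF together with serum. The parts played by the single components therefore cannot be told apart. Re-seeded cells were also 48 h older than the cells from which they came. In comparisons of the 2, time and re-seeding cannot be told apart.

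In cells without a Wnt signal, a complex of Axin, APC and GSK3 marks β-catenin for destruction, and a GSK3 inhibitor stops this step without any ligand. Stable β-catenin binds TCF/LEF proteins at target genes. Tcf7l1 is best known as a repressor of the naive pluripotency network in mouse pluripotent cells, Tcf7 and Lef1 more often act as activators with β-catenin, and Axin2 and Nkd1 are targets that also restrain the pathway.

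Each condition had 2 replicate libraries, but the deposited value is a single FPKM per gene and condition, in which the authors combined them. FPKM is fragments scaled to transcript length and library size. How the libraries were scaled is not given in the sources used here. No spread between replicates can be given, and no difference was tested. A gene was counted as higher or lower when the ratio of its values was at least 2 and the higher of them 1 FPKM or more, and genes that reached 1 FPKM in either value are called measured. How many reads each value rests on is not known. From the spacing of low values, a transcript of 2 kb at 1 FPKM stood at 28.5 to 36.7 steps of the table in most conditions and at 85.5 to 99.3 steps in cells re-seeded from 0 and 24 h. A step is not a read count, but few steps mean an imprecise value.

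Of 8 pluripotency markers, 7 were lower and 1 higher at 96 h than at 0 h, against 16.4% and 16.8% of all measured genes. They summed to 5960 FPKM in 2i/LIF, of which Dppa5a gave 4620 FPKM, and to 503 FPKM after 96 h. Utf1 went the other way, from 62.5 to 254 FPKM. All 8 were at 1 FPKM or more in each of the 15 conditions, so that count does not separate the conditions. Markers of fibroblasts also moved with the conditions, and their values stand beside the results they touch. The 20 fibroblast genes summed to 856 FPKM at 0 h, with Col1a1 at 229 FPKM, and to between 18.8 and 171 FPKM in the other 14 conditions. Whether feeders were present in the RNA-seq samples is not given in the sources used here. In such bulk samples, fewer cells of a type and less RNA per cell cannot be told apart.

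Sp5 and Axin2 are shown with the sequence before their start sites, since both are among the best known direct targets of β-catenin and TCF/LEF and had the largest values of the targets here. The sequences are the 250 bases upstream of the RefSeq start site on GRCm38.p6, written 5′ to 3′. For Sp5 this is chr2:70474673-70474922 on the plus strand and for Axin2 chr11:108920099-108920348 on the plus strand, both promoter sequence just outside the annotated first exon. The genes themselves span bases 70474923 to 70477729 of chromosome 2 and 108920349 to 108950783 of chromosome 11 in the Gencode annotation of mm10. Capitals mark matches to 4 TCF/LEF motifs searched on both strands, which were the letters CTTTGAA together with the variant CTTTGAT as well as the variant CTTTGTA and finally the variant CTTTGTT. These motifs cannot overlap one another on the same strand.
Sp5: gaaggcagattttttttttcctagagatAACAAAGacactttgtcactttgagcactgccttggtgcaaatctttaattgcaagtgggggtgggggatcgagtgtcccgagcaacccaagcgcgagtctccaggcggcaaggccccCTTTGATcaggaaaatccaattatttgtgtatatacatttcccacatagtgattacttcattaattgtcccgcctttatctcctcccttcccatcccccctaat
Axin2: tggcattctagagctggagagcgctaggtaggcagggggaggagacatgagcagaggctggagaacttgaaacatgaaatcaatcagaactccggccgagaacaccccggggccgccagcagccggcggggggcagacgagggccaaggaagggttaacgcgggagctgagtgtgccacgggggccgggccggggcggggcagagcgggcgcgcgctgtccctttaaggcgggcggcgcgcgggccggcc
The Sp5 window held 2 matches, AACAAAG at bases -222 to -216 and CTTTGAT at bases -104 to -98 from the start site. The Axin2 window held none, which says only that these letters are not in these bases. Of 32851 mouse promoter windows of the same length, 14.84% held at least 1 match and 1.428% at least 2. Windows were found for 8 of the 10 genes, 13 windows in all because Lef1, Tcf7 and Tcf7l2 have several start sites, and not for Cdx1 and Sfrp1. Besides Sp5, single matches lay in 1 window of Lef1 and 1 window of Tcf7l2. A match is a description of the sequence and not a bound site.

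The first question was how these genes behaved as cells left 2i/LIF. Axin2, Sp5 and Cdx1 were high in 2i/LIF and low 24 h later, whereas Lef1 climbed to a peak at 36 h and the other 3 TCF/LEF factors changed less. Between 0 and 24 h, 8 of the 10 genes were measured, 4 were lower (Axin2, Sp5, Cdx1 and Sfrp1) and 1 was higher (Lef1). Over all genes measured in this comparison 14.3% were lower and 8.64% higher. The median log2 ratio, with 0.1 FPKM added, was -1.20 over the 8 genes and -0.01 over all genes.

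**Figure D1:**
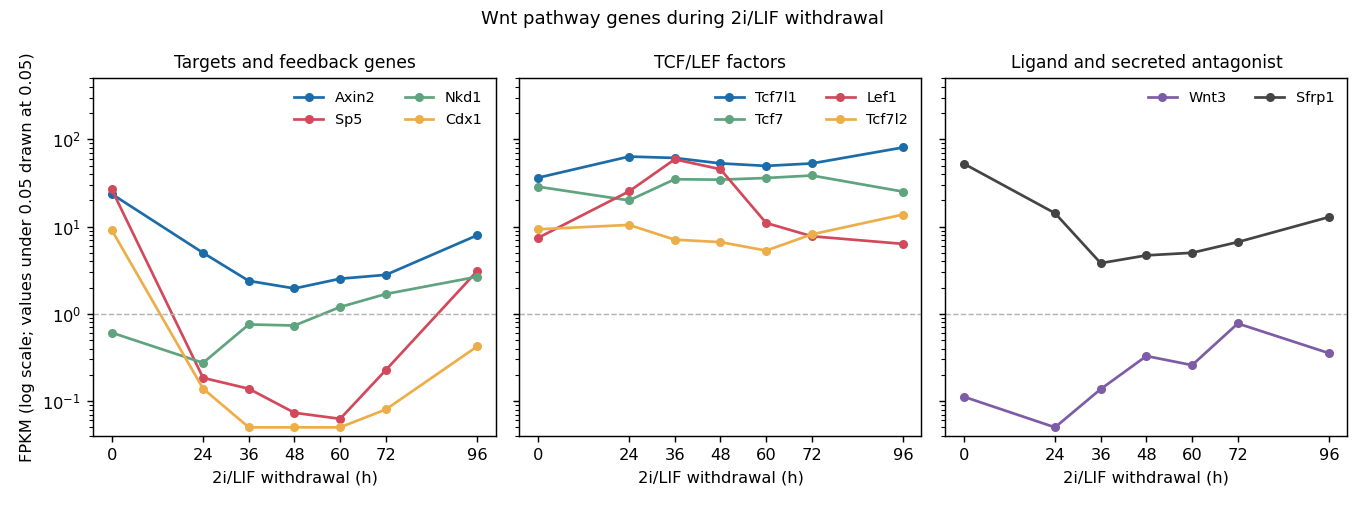
FPKM (log axis) of the 10 genes at 7 times of 2i/LIF withdrawal, with 1 point per condition that combines 2 replicates and the dashed line at 1 FPKM. Axin2, Sp5 and Cdx1 drop after 0 h and are higher again at 96 h than at 72 h, while Lef1 peaks at 36 h at 59.1 FPKM.

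Axin2, the scaffold of the β-catenin destruction complex that is itself induced by the pathway, stood at 23.7 FPKM in 2i/LIF and 5.00 FPKM after 24 h, a 4.73-fold lower value. It was then 2.39, 1.96, 2.53, 2.80 and 7.96 FPKM at 36, 48, 60, 72 and 96 h. Its lowest level in the time course was thus at 48 h, and the level at 96 h was 2.85-fold above that at 72 h.

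Sp5, a zinc finger transcription factor, was at 26.7 FPKM in 2i/LIF and 0.185 FPKM after 24 h, a 145-fold lower value. The value at 24 h rests on about 6.43 steps, so the size of the ratio is imprecise. Sp5 remained under 0.3 FPKM until 72 h, with 0.139, 0.0734, 0.0626 and 0.227 FPKM at 36, 48, 60 and 72 h, and reached 3.10 FPKM at 96 h. Between 72 and 96 h, 8 of the 10 genes were measured, and 2 of them, Axin2 and Sp5, were counted as higher. Of all measured genes 5.10% were higher. None of the 8 was lower, for which no share of all genes is given here.

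Cdx1, a homeobox gene of posterior patterning, was at 9.16 FPKM in 2i/LIF and 0.139 FPKM after 24 h, was listed at 0 at 36, 48 and 60 h, and had 0.0802 and then 0.424 FPKM at the last 2 timepoints. It was 66.02-fold lower at 24 h than at 0 h, at about 4.02 steps. Nkd1, which restrains the pathway through Dishevelled, had another course. Over the 7 timepoints it stood at 0.609, 0.274, 0.756, 0.735, 1.20, 1.69 and 2.66 FPKM. The known targets among the 10 genes therefore did not share 1 course. Nkd1 was under 1 FPKM at both 0 and 24 h and was not counted there, and at 96 h it was 4.38-fold above 0 h.

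Sfrp1, a secreted protein that binds Wnt ligands, had the highest level of the 10 genes at 0 h, 52.8 FPKM. It was 14.3 FPKM at 24 h and 3.81, 4.68, 5.01, 6.65 and 12.9 FPKM at 36, 48, 60, 72 and 96 h. Like Axin2, it was lowest in the middle of the course. Wnt3, a ligand that acts in the primitive streak, remained under 1 FPKM throughout withdrawal, from a listed 0 at 24 h to 0.775 FPKM at 72 h.

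The falls from 0 h share their starting value with a fall of the fibroblast markers. The 20 fibroblast genes summed to 856 FPKM in 2i/LIF and 94.5 FPKM after 24 h, then to 43.8, 56.7, 32.7, 36.4 and 42.6 FPKM at the later times. Of 16 that were measured in 0 against 24 h, 14 were lower. Their part in the lower Axin2, Sp5, Cdx1 and Sfrp1 was not tested. Between 72 and 96 h, when Axin2 and Sp5 were higher again, the fibroblast sum moved from 36.4 to 42.6 FPKM, with 4 of 12 measured markers higher and 1 lower. Col1a2, a fibrillar collagen, went from 2.96 to 13.6 FPKM and Thy1 from 8.64 to 3.96 FPKM. The sum of 8 neurectoderm markers went from 30.9 to 35.5 FPKM over the same interval, with 3 of 5 measured higher. Sox1 went from 4.16 to 13.3 FPKM and Nes, the largest member, from 23.0 to 14.6 FPKM. The part of either list in the higher Axin2 and Sp5 was not tested.

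**Figure D2:**
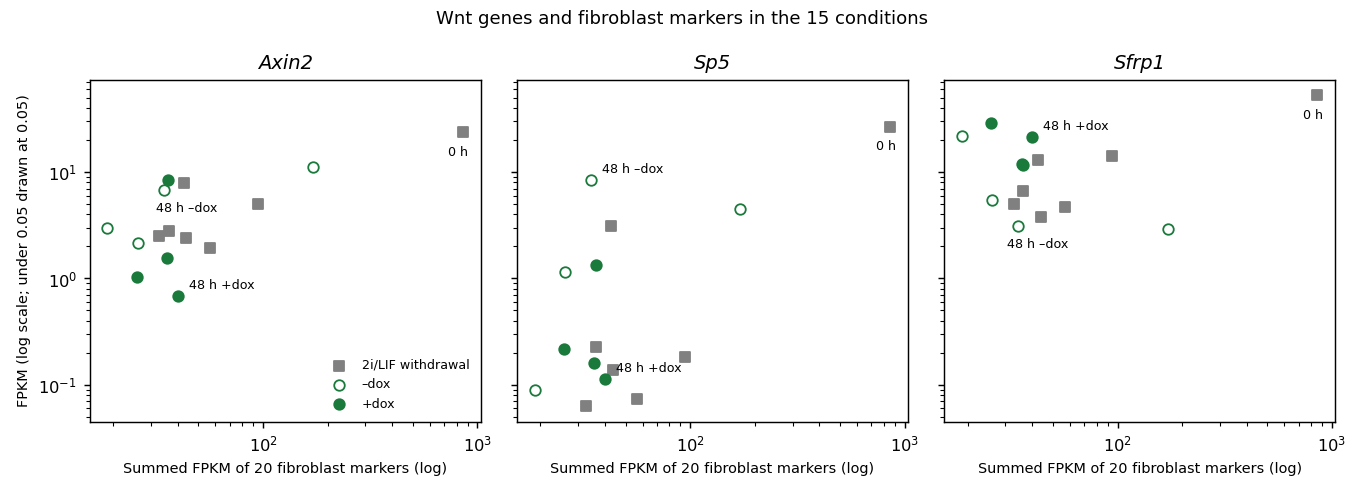
FPKM of Axin2, Sp5 and Sfrp1 against the summed FPKM of 20 fibroblast markers (both axes log) in the 15 conditions, with grey squares for the time course and open and filled circles for –dox and +dox. The 0 h condition stands apart at 856 FPKM of fibroblast markers, while the pair from 48 h has sums of 34.4 FPKM without and 40.1 FPKM with dox, in which 6 of 11 measured markers were lower with dox and 2 higher.

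Lef1 was the TCF/LEF factor with the widest range. Its levels were 7.40, 25.4, 59.1, 45.5, 11.02, 7.76 and 6.34 FPKM at 0, 24, 36, 48, 60, 72 and 96 h. It was 3.43-fold higher at 24 h than at 0 h and 4.13-fold lower at 60 h than at 48 h. Tcf7l1, over the same timepoints, stood at 36.3, 63.6, 61.3, 53.1, 49.7, 53.0 and 80.9 FPKM. Its value at 96 h was 2.23-fold that at 0 h. Tcf7 was lowest at 24 h (19.99 FPKM) and highest at 72 h (38.6 FPKM). Tcf7l2 was lowest at 60 h (5.31 FPKM) and highest at 96 h (13.8 FPKM). Neither was counted as higher or lower between 0 and 96 h.

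FPKM is per transcript length, so the levels of the 4 factors can be set beside each other. Tcf7l1 was the most abundant in 14 of the 15 conditions, the exception being +dox cells from 0 h, in which Tcf7 (27.6 FPKM) stood above Tcf7l1 (25.6 FPKM). Over the timepoints its share of their summed FPKM went from 44.4% in 2i/LIF to 53.2% after 24 h, down to 37.7% after 36 h and up to 64.1% after 96 h. The dip at 36 h coincided with the Lef1 peak, when Lef1 held 36.4% of the sum. With Lef1 left out of the sum, the Tcf7l1 share at 36 h was 59.3%. Lef1 held 9.05% in 2i/LIF and 10.8% or less from 60 h of withdrawal onwards.

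**Figure D3:**
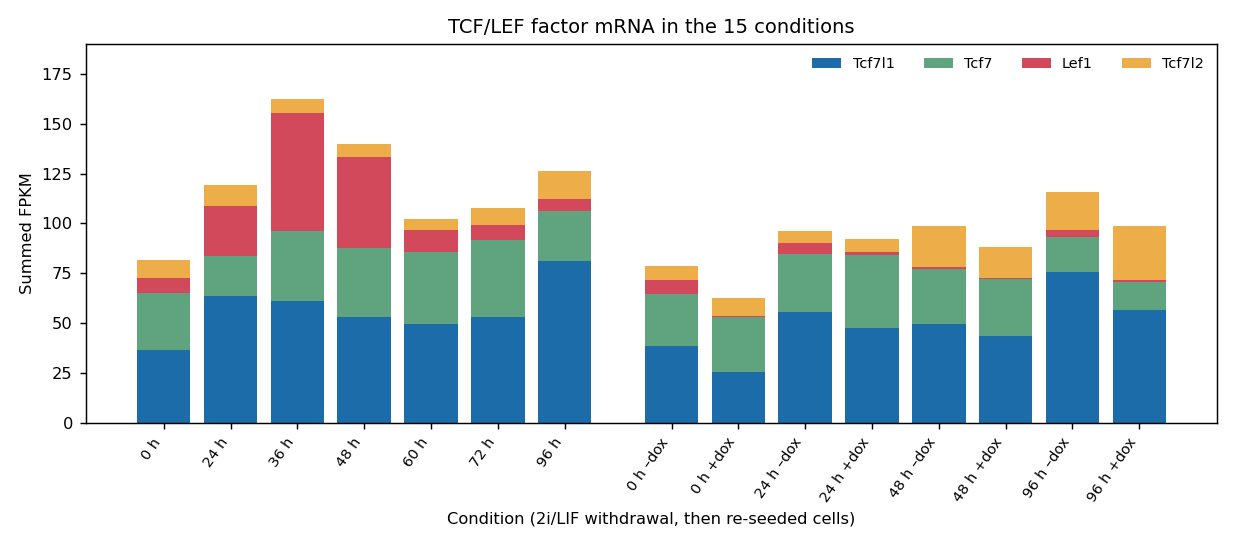
Summed FPKM of the 4 TCF/LEF factors in the 15 conditions, stacked by gene, with 1 combined value per condition. Tcf7l1 is the largest segment in all but the +dox cells from 0 h, Lef1 is wide at 24, 36 and 48 h of withdrawal, and within each pair of re-seeded cells the Lef1 segment is thinner with dox.

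Between 0 and 96 h, 9 of the 10 genes were measured. Nkd1 and Tcf7l1 were higher and Axin2, Sp5, Cdx1 and Sfrp1 lower. Over all genes 16.8% were higher and 16.4% lower, and the medians were -0.22 for the 9 genes and -0.02 for all genes. This comparison uses the same 0 h value as the one at 24 h. Axin2 was 2.97-fold, Sp5 8.62-fold, Cdx1 21.6-fold and Sfrp1 4.10-fold below 0 h at 96 h.

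Another 86 genes of the pathway, from ligands to nuclear cofactors, gave the setting. Between 0 and 24 h, 54 of them were measured, 12 were lower (22.2%) and 7 higher (13.0%), with a median of -0.13, beside 14.3% lower and 8.64% higher of all genes. The cytoplasmic transducers, which carry the signal inside the cell, hardly moved, with 1 of 13 measured counted as lower (Btrc, a ubiquitin ligase adaptor for β-catenin, 11.3 to 5.65 FPKM) and none higher. Among the other targets, 3 of 4 measured were lower, with T (Brachyury), a primitive streak gene, going from 2.85 to 0.0814 FPKM. The remaining one, Ccnd1, had the highest level of them and went up by less than 2-fold, from 43.2 to 79.1 FPKM. Wls, which carries ligands to the cell surface, went from 13.9 to 1.98 FPKM, and Fzd10, a receptor, from 17.8 to 3.22 FPKM. The receptor Fzd7 was higher, at 26.6 against 11.4 FPKM, and so was Tle4, a Groucho family corepressor, at 67.6 against 27.4 FPKM.

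Between 0 and 96 h, 17 of 59 measured were higher (28.8%) and 11 lower (18.6%), beside 16.8% higher and 16.4% lower of all genes, so the share of lower genes was close to that of all genes. Of 7 ligands measured 5 were higher, with the largest ratio for Wnt4, from 0.0297 to 6.17 FPKM. Of 13 receptors measured 5 were higher and 3 lower. Fzd2 went from 3.23 to 66.7 FPKM, Fzd7 from 11.4 to 37.2 FPKM, and Fzd5 from 12.4 to 2.85 FPKM. The secreted inhibitor Notum, which inactivates Wnt ligands and is a feedback target of the pathway, went from 16.9 to 0.240 FPKM. It had not fallen by 24 h, when it stood at 21.5 FPKM. The nuclear cofactor Aes went from 131 to 18.4 FPKM.

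Genes that Tcf7l1 is known to repress in naive cells formed another list. Of its 6 genes, 4 were lower and 1 higher at 24 h and 6 were lower at 96 h, against 0 h. Over all genes 14.3% were lower and 8.64% higher at 24 h, and 16.4% lower at 96 h. Esrrb and Nanog of this list are also among the pluripotency markers. Esrrb, an orphan receptor of the naive network, was at 150, 45.3, 16.1, 12.8, 7.17, 9.44 and 3.07 FPKM over the 7 times. Tfcp2l1, another naive factor, was at 124 FPKM in 2i/LIF and 12.1 FPKM after 24 h. Nr0b1 was the exception at 24 h, with 101 FPKM against 43.5 FPKM at 0 h.

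The next question was how cells re-seeded in serum/LIF without OSKM stood against the cells from which they came. Cells re-seeded –dox from 0 h were no longer in the GSK3 inhibitor. Their pluripotency markers summed to 6649 FPKM, of which Dppa5a gave 4282 FPKM. Of these markers, 2 of 8 were higher than at 0 h and none was lower. Among the 10 genes, 8 were measured against 0 h, none was higher, and Axin2, Sp5, Cdx1 and Sfrp1 were lower. Over all genes 12.0% were higher and 10.1% lower. Axin2 was at 2.95 against 23.7 FPKM, Sp5 at 0.0892 against 26.7 FPKM, Cdx1 at 0.585 against 9.16 FPKM and Sfrp1 at 22.1 against 52.8 FPKM. Tcf7l1, Tcf7 and Lef1 were within 1.09-fold of their 0 h values, at 38.3, 26.4 and 7.03 FPKM. The 0 h values are the same as in the comparisons of the time course. Here too the fibroblast markers were lower in 15 of 16 measured, with a sum of 18.8 against 856 FPKM, and their part was not tested.

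From 24 h the picture was mixed. Of 8 genes measured, Sp5 and Nkd1 were higher in –dox cells than at 24 h of withdrawal and Axin2, Lef1 and Sfrp1 lower, against 14.9% higher and 10.6% lower of all genes. Sp5 was at 1.16 against 0.185 FPKM, and Nkd1 at 1.37 against 0.274 FPKM. Lef1 was at 5.73 against 25.4 FPKM. Of 13 fibroblast markers measured 10 were lower, with a sum of 26.1 against 94.5 FPKM, and their part was not tested.

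From 48 h, –dox cells had higher Axin2, Sp5, Tcf7l2 and Wnt3 and lower Lef1 than the cells from which they came, among 8 measured. Over all genes 15.3% were higher and 11.5% lower, and the medians were 0.76 for the 8 genes and -0.01 for all genes. Axin2 was at 6.75 against 1.96 FPKM, a 3.45-fold higher value. Sp5 was at 8.48 against 0.0734 FPKM, the latter resting on about 2.37 steps. Wnt3 had its highest level of all 15 conditions, 3.28 FPKM, against 0.328 FPKM before re-seeding, and Tcf7l2 was at 20.4 against 6.64 FPKM. Lef1 stood at 1.41 FPKM, 32.4-fold below its 45.5 FPKM before re-seeding. Cells left in withdrawal until 96 h, the same total time, had Axin2 at 7.96 FPKM and Sp5 at 3.10 FPKM. In them Tcf7l2 was at 13.8, Wnt3 at 0.354 and Lef1 at 6.34 FPKM. The part of re-seeding in these differences was not tested.

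Other genes of the pathway moved towards higher values in the same cells, 16 of 54 measured (29.6%) against 2 lower (3.70%), beside 15.3% higher and 11.5% lower of all genes. Of 7 ligands measured 6 were higher. Wnt7b was at 13.0 against 0.321 FPKM, Wnt4 at 12.9 against 0.367 FPKM, and Wnt7a at 6.16 FPKM against a listed 0. Both secretion genes were higher, Wls at 34.9 against 1.97 FPKM and Porcn, which adds the lipid that ligands need, at 4.42 against 0.555 FPKM. T was at 5.90 against 0.0653 FPKM, and the inhibitor Dkk1 at 2.08 against 0.0852 FPKM. At 96 h of withdrawal, Wnt7b, Wnt4 and Wnt7a stood at 6.06, 6.17 and 1.31 FPKM. Wls and Porcn were at 38.8 and 1.71 FPKM there, and T and Dkk1 at 0.150 and 1.79 FPKM. None of the 14 cytoplasmic transducers measured was higher or lower. The 8 mesendoderm markers, of which T is also one, summed to 10.6 FPKM in these cells and 2.43 FPKM at 48 h, and T made up most of the former.

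From 96 h, 1 of 9 measured genes was higher in –dox cells (Cdx1, 1.5 against 0.424 FPKM) and 1 lower (Sfrp1, 2.91 against 12.9 FPKM). Over all genes 12.4% were higher and 11.2% lower, so both counts were close to the shares of all genes. Axin2, at 11.1 against 7.96 FPKM, and Sp5, at 4.46 against 3.10 FPKM, were above the values before re-seeding by less than 2-fold. Nkd1 had its highest level of all conditions in these cells, 4.37 FPKM. Of 10 ligands measured 8 were higher, and Dkk1 was at 31.0 against 1.79 FPKM. These were also the –dox cells with most fibroblast marker RNA, 171 FPKM, against 42.6 FPKM before re-seeding.

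The last question was what differed with dox, which induces OSKM, when medium and time were the same. Lef1 was lower with dox from each of the 4 starting times, Axin2 and Sp5 were far lower with dox from 48 h, and Sfrp1 was higher with dox from 24, 48 and 96 h. The 4 comparisons have no values in common with each other, but each uses –dox values already set against the timepoint of origin.

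**Figure D4:**
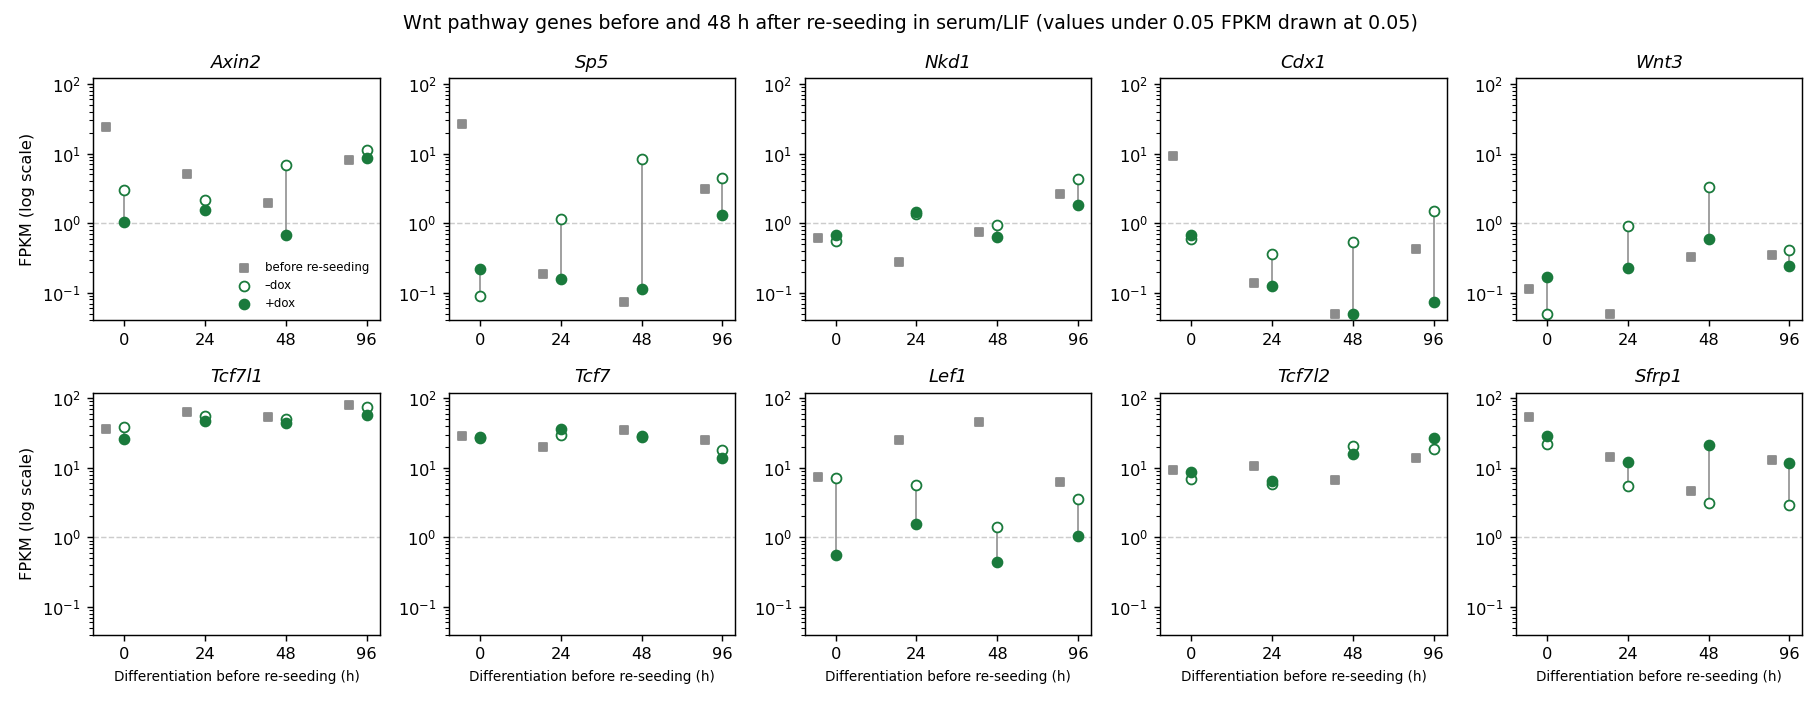
FPKM (log axis) of the 10 genes before re-seeding (grey squares) and after 48 h in serum/LIF –dox (open circles) or +dox (filled circles), by hours of prior withdrawal, with 1 combined value per condition. The gap between open and filled circles is widest for Sp5 from 48 h, Lef1 is lower with dox at all 4 times, and Tcf7 and Tcf7l1 hardly separate.

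For Lef1, the –dox values were 7.03, 5.73, 1.41 and 3.54 FPKM from 0, 24, 48 and 96 h, and the +dox values 0.558, 1.55, 0.448 and 1.04 FPKM. The +dox value was 12.6-fold, 3.69-fold, 3.14-fold and 3.39-fold lower. None of the +dox levels reached the lowest –dox level except that from 24 h, which stood above the –dox level from 48 h. Sfrp1 was at 22.1, 5.50, 3.12 and 2.91 FPKM in –dox and 28.9, 12.0, 21.2 and 11.8 FPKM in +dox cells. Its +dox value was 1.31-fold, 2.18-fold, 6.80-fold and 4.05-fold higher, so the lowest +dox level was 11.8 FPKM and the lowest –dox level 2.91 FPKM.

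From 0 h, 6 genes were measured with and without dox, Axin2 and Lef1 were lower with dox and none was higher, against 5.61% lower and 3.62% higher of all genes. Axin2 was at 1.04 against 2.95 FPKM. From 24 h, 8 genes were measured. Sp5 (0.160 against 1.16 FPKM) and Lef1 were lower and Sfrp1 higher, against 3.40% lower and 2.87% higher of all genes. Axin2 was at 1.55 against 2.15 FPKM, a difference under 2-fold.

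From 48 h, 4 of 8 measured genes were lower with dox (Axin2, Sp5, Lef1 and Wnt3) and Sfrp1 was higher, against 6.46% lower and 6.56% higher of all genes. The medians were -0.92 for the 8 genes and -0.02 for all genes. Axin2 stood at 0.683 FPKM with dox, its lowest level of all conditions, and at 6.75 FPKM without, a 9.87-fold difference. Sp5 was at 0.113 against 8.48 FPKM. The Sp5 ratio of 75.1 rests on about 3.58 steps in +dox cells. Wnt3 was at 0.587 against 3.28 FPKM. The fibroblast markers summed to 40.1 FPKM with and 34.4 FPKM without dox, while 6 of 11 measured were lower and 2 higher. Col1a1 was at 2.27 against 4.97 FPKM and Thy1 at 8.20 against 1.55 FPKM. The mesendoderm markers summed to 2.36 FPKM with and 10.6 FPKM without dox, with 3 of 3 measured lower, and their part was not tested.

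Among the other pathway genes, 16 of 55 measured were lower with dox from 48 h (29.1%) and 3 higher (5.45%), beside 6.46% and 6.56% of all genes. By role, 5 of 7 ligands, 1 of 2 secretion genes, 4 of 12 receptors, 1 of 3 genes of R-spondins and receptor turnover, 2 of 5 secreted inhibitors, 1 of 8 nuclear cofactors, 2 of 4 other targets and none of 14 cytoplasmic transducers were lower. Wnt8a was at 0.0862 FPKM with and 3.88 FPKM without dox, and Wnt4 at 2.23 against 12.9 FPKM. Wls was at 8.81 against 34.9 FPKM, Fzd2 at 10.2 against 50.9 FPKM and Ryk, an atypical Wnt receptor, at 37.5 against 80.7 FPKM. The inhibitor Dkk1 was at 0.0642 against 2.08 FPKM and T at 0.390 against 5.90 FPKM. The 3 higher genes were Fzd5, at 8.68 against 2.40 FPKM, Dkk3, at 2.07 against 0.822 FPKM, and Aes, at 58.0 against 22.4 FPKM.

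**Figure D5:**
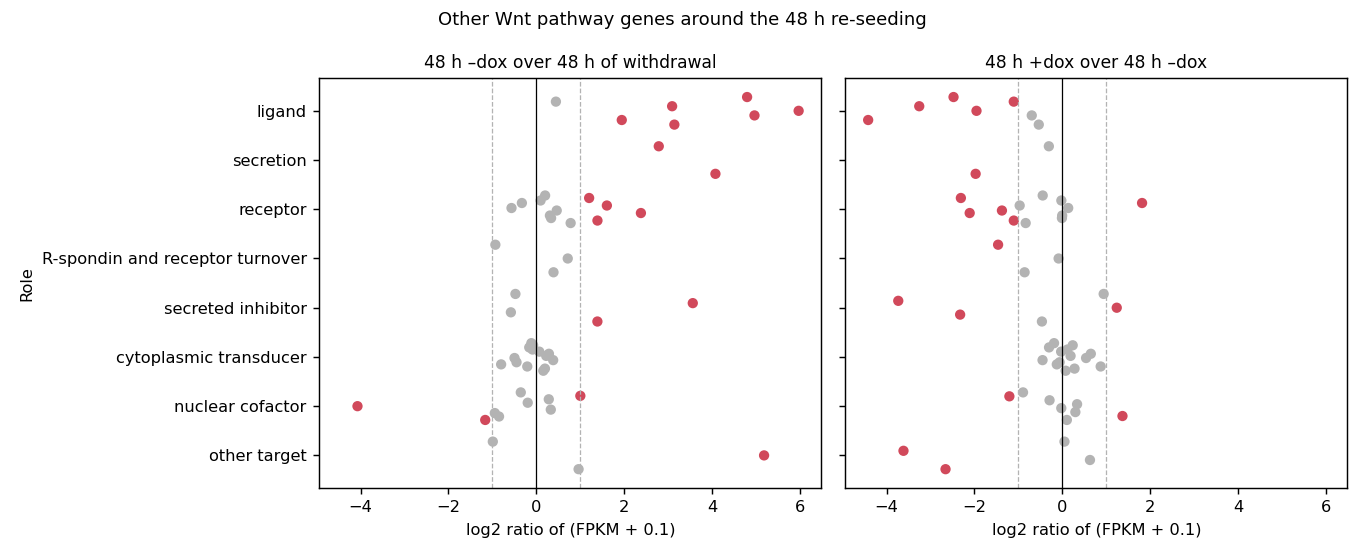
log2 ratios, with 0.1 FPKM added, of the other Wnt pathway genes that reached 1 FPKM, by role, for 48 h –dox over 48 h of withdrawal (left) and 48 h +dox over –dox (right), with each point a gene, red where the plain ratio was at least 2-fold, and dashed lines at a 2-fold ratio. Ligands lie to the right on the left panel and to the left on the right panel, and the cytoplasmic transducers stay between the dashed lines in both; the panels share the 48 h –dox values.

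Of the 6 naive genes repressed by Tcf7l1, 4 were higher with dox in this comparison and none was lower, beside 6.56% higher and 6.46% lower of all genes. Esrrb was at 56.2 FPKM with and 8.31 FPKM without dox, Tfcp2l1 at 31.5 against 7.84 FPKM and Nr0b1 at 16.3 against 2.29 FPKM. Tcf7l1 itself was at 43.7 against 49.7 FPKM. The pluripotency markers summed to 3287 FPKM with dox and 1685 FPKM without, and 4 of 8 were higher (Pou5f1, Sox2, Zfp42 and Esrrb). Pou5f1 (Oct4), at 204 against 72.6 FPKM, and Sox2, at 87.8 against 43.4 FPKM, are also genes of the OSKM transgenes that dox switches on. Esrrb and Nanog are in both lists, so the lists are not separate observations. From the other starting times the 6 naive genes differed less evenly with dox. From 0 h none was higher or lower, and from 24 h 2 were higher and none lower. From 96 h, 3 of 5 measured were higher and 1 lower. Over all genes 3.62%, 2.87% and 6.67% were higher from 0, 24 and 96 h, and 5.61%, 3.40% and 11.1% lower.

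From 96 h, Sp5, Nkd1, Cdx1 and Lef1 were lower with dox and Sfrp1 higher among 9 measured, against 11.1% lower and 6.67% higher of all genes. Sp5 was at 1.33 against 4.46 FPKM, Nkd1 at 1.83 against 4.37 FPKM and Cdx1 at 0.0744 against 1.5 FPKM. Axin2, unlike at 48 h, was at 8.51 against 11.1 FPKM, a 1.31-fold difference. Of 61 other pathway genes measured 16 were lower (26.2%) and 3 higher (4.92%). Dkk1 was at 5.10 against 31.0 FPKM. Fibroblast markers were lower with dox in 11 of 15 measured and summed to 36.2 against 171 FPKM, and their part in these differences was not tested.

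Tcf7l1, Tcf7 and Tcf7l2 were not counted as higher or lower with dox from any starting time. Tcf7l1 was at 25.6, 47.6, 43.7 and 56.7 FPKM with dox from 0, 24, 48 and 96 h and at 38.3, 55.4, 49.7 and 75.6 FPKM without, lower each time by at most 1.497-fold. Tcf7 was at 27.6, 36.3, 28.3 and 13.9 FPKM with and 26.4, 29.1, 27.2 and 17.8 FPKM without dox. Tcf7l2 was at 8.77, 6.54, 15.7 and 27.0 FPKM with and 6.81, 5.90, 20.4 and 18.9 FPKM without, and its highest level of all conditions was that with dox from 96 h. The Tcf7l1 share of the summed TCF/LEF level in these cells lay between 40.9% and 65.3%. The Lef1 share lay between 0.509% and 1.69% with dox and between 1.42% and 8.95% without.

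Across the 15 conditions the 3 targets Axin2, Sp5 and Cdx1 were most alike among the 45 pairs of the 10 genes. Pearson's r of log2(FPKM + 1) was 0.85 for Axin2 and Sp5, 0.83 for Sp5 and Cdx1 and 0.71 for Axin2 and Cdx1 (n = 15 conditions). The 0 h condition is the highest for each of the 3, and the cells of a condition share library and depth, so these values are descriptions. Only 1 other pair, Nkd1 and Tcf7l1, was above 0.5, at 0.59. The lowest was Tcf7 and Tcf7l2, at -0.77.

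Among the 9069 genes that reached 10 FPKM, those most like Axin2 over the 15 conditions were Loxl2 (r = 0.91), Tmem176b (0.91) and Col1a2 (0.90), and those most like Sp5 were Col5a1 (0.92), Loxl2 (0.89) and Fzd10 (0.88). Col1a2 and Col5a1 encode fibrillar collagens and Loxl2 an enzyme that cross-links them, and all of these but Tmem176b were highest at 0 h. Lef1 was most like Bptf (0.96), a chromatin remodelling subunit, Tcf7l1 most like Hn1 (0.94), and Tcf7l2 most like Laptm4a (0.95). Sfrp1 was most like Ephx1 (0.92) and Tcf7 most like 2900011O08Rik (0.89). Over the 7 timepoints alone, none of the 3 closest genes of any of the 7 members compared was among its 3 closest genes over 15 conditions, so these names depend on the conditions used.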

How the data were processed

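RNA-seq of polyadenylated RNA from mouse secondary iPSCs was analysed in 15 conditions with 2 samples each, grouped by the labels. According to the methods and the submitters' processing notes, the authors mapped reads to mm10 with TopHat2 2.0.14 and used Cufflinks 2.2.1 to quantify 6 biotypes of Gencode transcripts, 200 bp or longer. The deposited table holds FPKM values from Cuffdiff, which combined both replicates of a condition. The scaling between libraries is not given in the sources used here. Its 5 columns of the authors' calls (response to dox in words at each time, and a dynamics group) were not used. The methods describe gelatin for withdrawal and MEFs for re-seeding in the colony-forming assay, and not on what the RNA-seq cells grew.

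Plain ratios were taken, with limits of 2-fold and 1 FPKM. Medians used 0.1 FPKM added, and likeness used log2(FPKM + 1). Genes of 4 rows whose symbols are dates were kept by their names as given. The 10 genes and all lists were chosen with earlier results of these data known. All 10 genes are named. Other pathway genes are named where they had the largest ratio of their role and direction, or were counted and reached 10 FPKM. Ccnd1 is named besides, as the measured target that was not lower at 24 h. The Tcf7l1-repressed and marker genes are named freely from their lists. The 3 genes most like a member were taken for the 7 members that reached 10 FPKM. Promoter windows came from RefSeq (GRCm38.p6). Python 3.11.15, numpy 2.4.6, pandas 2.3.3 and matplotlib 3.10.9 were used, and the steps were tested on simulated data. Alternatives were tried for the minimum, the fold, the added value and the scaling of the conditions.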

Additional observations from a re-analysis of the deposited data

Results flagged for a closer look

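In cells re-seeded in serum/LIF without dox, 3 of the genes differed from the cells of origin in opposite directions, by hours of differentiation. In each case the difference between timepoints was not tested, since each condition has a single combined value. Re-seeded cells were also 48 h older than the cells of origin, so time and re-seeding cannot be told apart in these ratios. Axin2 was lower than before re-seeding from 0 h (log2 ratio -3.00) and 24 h (-1.22) and higher from 48 h (1.79). Its –dox values from 0, 24 and 48 h were 2.95, 2.15 and 6.75 FPKM. At 48, 72 and 96 h of withdrawal, the same total times, Axin2 stood at 1.96, 2.80 and 7.96 FPKM. Sp5 was lower from 0 h (-8.23) and higher from 24 h (2.65) and 48 h (6.85). Its –dox values were 0.0892, 1.16 and 8.48 FPKM, beside 0.0734, 0.227 and 3.10 FPKM at 48, 72 and 96 h of withdrawal. Cdx1 was lower from 0 h (-3.97) and higher from 96 h (1.83). The cells at 0 h were the only ones in the GSK3 inhibitor before re-seeding and had the most fibroblast marker RNA, 856 FPKM.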

How the results depend on the processing

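No paired analysis was possible because the deposited table has 1 combined value per condition, and for the same reason no sample was left out. Of 200 recomputed counts of the 10 genes, 169 were within 1.5 times the reported count, and all were with a minimum of 0.5 FPKM, 0.1 FPKM added or either scaling. Scaling to the summed FPKM moved the median log2 ratio of all genes by -0.23 to 0.27. None of 168 recomputed log2 ratios changed sign, and 26 moved by over 1.5-fold, all with FPKM added.

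Requiring 1 FPKM in both values gave 2 lower at 24 h and 1 higher at 96 h against 0 h. For –dox against the time of origin it gave 2 lower from 0 h and 0, 2 and 0 higher from 24, 48 and 96 h. For dox it gave 1 lower from 0 h, 1 from 24 h and 0 from 48 h. A minimum of 5 FPKM gave 1 higher at 96 h against 0 h, 0 higher –dox from 24 and 96 h, and with dox 1, 1, 2 and 0 lower from 0, 24, 48 and 96 h. No minimum gave 4 higher –dox from 24 h, and with dox 2 higher from 0 h and 4 lower from 24 h. A fold of 1.5 gave 2 higher at 24 h and, –dox from 96 h, 2 higher and 2 lower. A fold of 3 gave 1 higher at 96 h, 1 lower –dox from 24 h, and with dox 1 lower from 0 h and 0 higher from 24 h. Adding 1 FPKM gave 0 higher –dox from 24 and 96 h, and with dox 1 lower from 0 h, 0 higher from 24 h and 1 lower from 24 h. Without Lef1, the Tcf7l1 share at 36 h was 59.3%. Requiring 1 FPKM in both values drops, by construction, genes such as Sp5 and Cdx1 that are under it in 1 of them, and the cause of the other changes was not tested. With Spearman's rho, 1 of the 7 lists of closest genes shared at least 2 of 3 genes with the reported list, and with the 7 timepoints alone none did.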
